A study of Mus musculus with 8 samples.

Results

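The BMP signalling and Id genes described here are 10 genes of 19938 measured: the ligands Bmp2, Bmp4 and Bmp7, the receptor Bmpr1a, the secreted antagonist Grem1, the inhibitory Smads Smad6 and Smad7, and the target genes Id1, Id2 and Id3. They were chosen by gene symbol, and each was read by 1 probe set that carries that symbol alone. Levels are log2 signals of Affymetrix arrays after robust multi-array average (RMA), 1 array per tumor, in 8 colonic tumors of mice. No group holds normal colon, so rose and fell mean higher or lower in one tumor group than in another.

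The tumors formed 3 groups. The K-rasG12D AOM group (3 arrays) held distal colon tumors induced with azoxymethane (AOM), a colon carcinogen, in mice whose genotype label is K-rasG12Dint. The LSL AOM group (2 arrays) held AOM tumors of the distal colon labelled LSL-K-rasG12D/+, where LSL is a lox-stop-lox cassette, which blocks the allele that carries it unless recombined; the titles of these samples carry wt. The serrated group (3 arrays) held serrated tumors of the proximal colon labelled K-rasG12Dint with Ink4a/Arf-/-, and its titles name no AOM. Every label thus includes a K-rasG12D allele, recombined or not. Tumor type, colon segment, AOM and Ink4a/Arf status changed together between the serrated group and the others and cannot be told apart. Against the LSL AOM group, and so in part against both AOM groups together, the K-ras label changed with them. The sources used here give neither the recombinase driver nor the age of the mice. They do not say whether the tumors of a group came from separate mice, so p-values speak for the spread among these 8 arrays, part of which may be technical.

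Bone morphogenetic proteins are secreted ligands that bind paired type I and type II receptors, which phosphorylate Smad1, Smad5 and Smad9. These Smads join Smad4, enter the nucleus and switch on genes such as the Id genes and, as feedback, Smad6 and Smad7. In the intestine BMP activity is high towards the lumen, where epithelial cells differentiate, and is held down at the crypt base by antagonists such as gremlin 1 from cells beneath the crypt. Id proteins have a helix-loop-helix but no DNA-binding basic region, and they hold back E proteins (Tcf3, Tcf4 and Tcf12) by pairing with them.

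Promoter sequence is shown for Id2, Id3 and Smad6, the 3 members lower in serrated tumors for which RefSeq start-site sequence was at hand, because Smads act on such genes through short DNA motifs. RefSeq promoters were found for 6 of the 10 members. Each line gives 250 bases before and 30 bases after the annotated start, 5′ to 3′ on the gene's strand, in GRCm38.p6. Id2 is at chr12:25096063-25096342 on the minus strand, Id3 at chr4:136143572-136143851 on the plus strand and Smad6 at chr9:64022030-64022309 on the minus strand. Capitals mark GGCGCC (a GC-rich motif bound by BMP Smads), CAGAC or its reverse complement GTCTG (a Smad box), and GTCTAGAC (the palindromic Smad motif), searched on both strands, with no overlap between hits.
Id2: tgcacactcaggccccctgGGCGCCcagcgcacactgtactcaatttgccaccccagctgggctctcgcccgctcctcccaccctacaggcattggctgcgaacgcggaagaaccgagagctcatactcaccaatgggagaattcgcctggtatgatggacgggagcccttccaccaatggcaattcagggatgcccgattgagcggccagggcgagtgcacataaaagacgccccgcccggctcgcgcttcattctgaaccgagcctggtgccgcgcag
Id3: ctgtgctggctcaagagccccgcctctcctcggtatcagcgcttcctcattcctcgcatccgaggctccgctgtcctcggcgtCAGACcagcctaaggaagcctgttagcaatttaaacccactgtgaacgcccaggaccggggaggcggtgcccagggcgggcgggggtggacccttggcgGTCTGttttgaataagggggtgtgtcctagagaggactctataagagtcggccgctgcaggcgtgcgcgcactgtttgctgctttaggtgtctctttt
Smad6: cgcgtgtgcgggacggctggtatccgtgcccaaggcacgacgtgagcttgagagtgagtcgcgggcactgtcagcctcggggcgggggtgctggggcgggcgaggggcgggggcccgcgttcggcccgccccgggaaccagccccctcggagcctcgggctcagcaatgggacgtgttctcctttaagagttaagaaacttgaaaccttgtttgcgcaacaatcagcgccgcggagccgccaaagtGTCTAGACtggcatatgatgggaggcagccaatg
Id2 held GGCGCC once, starting 231 bases before the start site. Id3 held the Smad box at 167 and 68 bases before it, the second on the opposite strand. Smad6 held the palindrome, beginning 4 bases before the start site of its window. The annotated Smad6 gene reaches further upstream, to chr9:64022085, so this position depends on the start site chosen. Of 32851 RefSeq windows of the same length, 10.9% held GGCGCC, 46.8% held CAGAC and 0.192% held GTCTAGAC. A match describes the letters only, and no binding was measured.

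The arrays were close in scale, with medians over genes between 4.17 and 4.31 and SDs over genes between 2.00 and 2.13 on 7 arrays. Serrated replicate 1 stood apart with an SD of 1.77, so the members' results in the first comparison are also given without it. By list mean, epithelial markers were bright: 10 such genes averaged 9.68 to 9.72 in serrated and 8.91 to 9.13 in AOM tumors. Single genes could be dimmer, such as Cdx2 at 4.50 to 5.73 on the AOM arrays. Of the 10 genes, 2 were higher in serrated tumors past the threshold below, Krt20 by 2.53 and Cdx2 by 2.56 (limma adjusted p = 0.0162 and 0.0013). The median difference of the 10 was 0.25. The mean of 10 fibroblast genes was 5.57 to 6.47 and 6.29 to 7.16, that of 8 macrophage genes 4.82 to 5.61 and 5.94 to 6.61, and that of 10 endothelial genes 4.45 to 5.06 and 4.37 to 5.02, respectively. In serrated tumors 3 of the 10 fibroblast and 5 of the 8 macrophage genes were lower past that threshold, and 0 of the 10 endothelial genes were, in either direction. The 8 smooth muscle genes averaged 5.31 to 6.32 and 4.93 to 6.01, and 7 lymphocyte genes 3.60 to 3.94 and 3.07 to 4.09, with 0 genes past the threshold in both lists.

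The question put by the series title, how AOM-induced and serrated tumors differ, was asked first of the 10 genes. In serrated tumors 5 of the 10 genes fell and 0 rose: the ligand Bmp7, the 3 Id genes and the feedback inhibitor Smad6. Bmp7 fell 3.69-fold, Id3 3.24-fold, Id2 2.64-fold, Id1 1.71-fold and Smad6 1.58-fold. The test was limma over all 19938 genes, serrated mean minus the mean of both AOM group means, with Benjamini-Hochberg adjustment and a threshold of 0.05. Over all genes 9.38% passed, 5.76% lower and 3.62% higher. The median log2 difference was -0.72 over the 10 members and 0.04 over all genes. Without serrated replicate 1 the count was 6, of which Bmp7 and the Id genes were lower and Bmp2 and Bmpr1a higher, and Smad6 was not called (-0.54, adjusted p = 0.0896). Array weights called 3262 of the 19938 genes lower and 2497 higher, against 1149 and 722 without weights. With them the member count was 7, the same 6 and Bmp4, which was lower. It was 3 without K-rasG12D AOM replicate 1 or 2, and 1, Bmp7, without either LSL AOM array. For the same 5 genes, and no other member, every serrated array lay below every AOM array, as it did for 8.93% of all genes. Centring each array on its median lowered the share of called genes that were lower from 61.4% to 51.1%, and Bmp7 and the Id genes kept their calls under it.

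**Figure D1:**
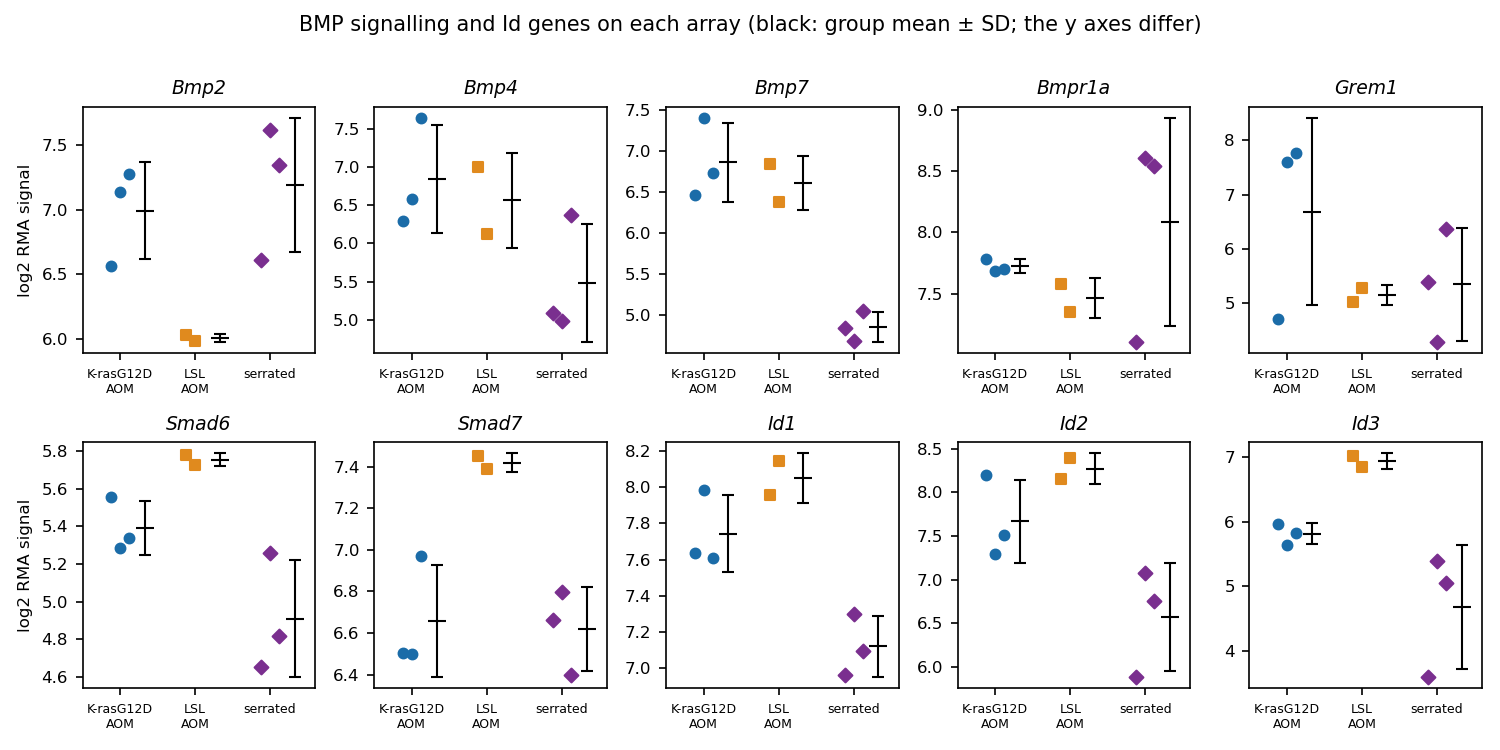
Log2 RMA signal (y axis, scaled per panel) of the 10 genes on each array, by tumor group (x axis), with the group mean ± SD in black (n = 3, 2 and 3). The serrated arrays lie below all AOM arrays for Bmp7, Smad6, Id1, Id2 and Id3, while Grem1 spreads from 4.70 to 7.76 within the K-rasG12D AOM group.

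Bmp7, a secreted BMP ligand, had the smallest adjusted p of the 10 genes. Its log2 level was 6.46, 7.40 and 6.73 in K-rasG12D AOM tumors, 6.84 and 6.38 in LSL AOM tumors, and 4.84, 4.67 and 5.04 in serrated tumors. The highest serrated array lay 1.34 log2 units below the lowest AOM array, and the AOM groups overlapped. Bmp7 fell by 1.89 ± 0.23 on the log2 scale (SE; limma adjusted p = 0.00244), and its call held with each of the 8 arrays left out in turn (adjusted p from 0.00288 to 0.0175).

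Bmp4, a ligand made largely by the mesenchyme around the crypts, did not pass. It stood at 6.30, 6.59 and 7.64 in K-rasG12D AOM tumors, at 7.005 and 6.13 in LSL AOM tumors, and at 5.10, 4.98 and 6.37 in serrated tumors. Serrated replicate 3 lay inside the AOM range and the other serrated arrays below it. The log2 difference was -1.22 ± 0.42 (SE; limma adjusted p = 0.104), which became a call without serrated replicate 3 (-1.66, adjusted p = 0.0184) and with array weights (-1.49, adjusted p = 0.0115). Without serrated replicate 1 it was -1.03 (adjusted p = 0.242). On serrated replicate 3 the fibroblast list was also highest of the serrated arrays, at 6.47 against 5.82 and 5.57. In whole tumors, fewer cells of a type and less RNA per cell cannot be told apart, and the part of fibroblast content in the Bmp4 level was not tested.

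Bmp2, a ligand of the differentiated epithelium, ran the other way. Its level was 6.57, 7.13 and 7.28 in K-rasG12D AOM tumors, 6.03 and 5.99 in LSL AOM tumors, and 6.61, 7.61 and 7.34 in serrated tumors. Serrated and K-rasG12D AOM arrays overlapped, and both LSL arrays lay below all others. The difference from the AOM groups was 0.69 ± 0.26 (SE; limma adjusted p = 0.135). Without serrated replicate 1 it was 0.98 and passed (adjusted p = 0.0239), and quantile normalization (0.82, adjusted p = 0.0381) and array weights (1.08, adjusted p = 0.00468) also gave a call.

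Bmpr1a, a type I BMP receptor, split the serrated group. It stood at 7.11 on serrated replicate 1 and at 8.61 and 8.54 on replicates 2 and 3. The K-rasG12D AOM arrays read 7.79, 7.68 and 7.70 and the LSL AOM arrays 7.58 and 7.35, so the serrated arrays lay on both sides of all AOM arrays. The difference was 0.49 ± 0.32 (SE; limma adjusted p = 0.389), and without serrated replicate 1 it was 0.98 (adjusted p = 0.00406). With array weights, which gave that array little weight, it was 0.90 (adjusted p = 0.00667).

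Grem1, which encodes the BMP antagonist gremlin 1, was spread widely inside one group. Its level was 4.70, 7.60 and 7.76 in K-rasG12D AOM tumors, 5.02 and 5.29 in LSL AOM tumors, and 5.38, 4.29 and 6.37 in serrated tumors. K-rasG12D AOM replicate 1 read like the LSL arrays and the other K-rasG12D AOM arrays were the highest of all 8. The K-rasG12D AOM mean was 6.69 ± 1.72 (SD, n = 3), and the difference of serrated from AOM tumors was -0.57 ± 0.72 (SE; limma adjusted p = 0.648). The 95% interval of that difference ran from -2.20 to 1.05, and without serrated replicate 1 the difference was -0.59 (adjusted p = 0.780). On the fibroblast list K-rasG12D AOM replicate 1 read 6.50, below the 6.99 and 6.92 of replicates 2 and 3. LSL AOM replicate 1 read 7.16 with Grem1 at 5.02, and serrated replicate 3 read 6.47 with Grem1 at 6.37. The part of fibroblast content in the Grem1 level was not tested.

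**Figure D2:**
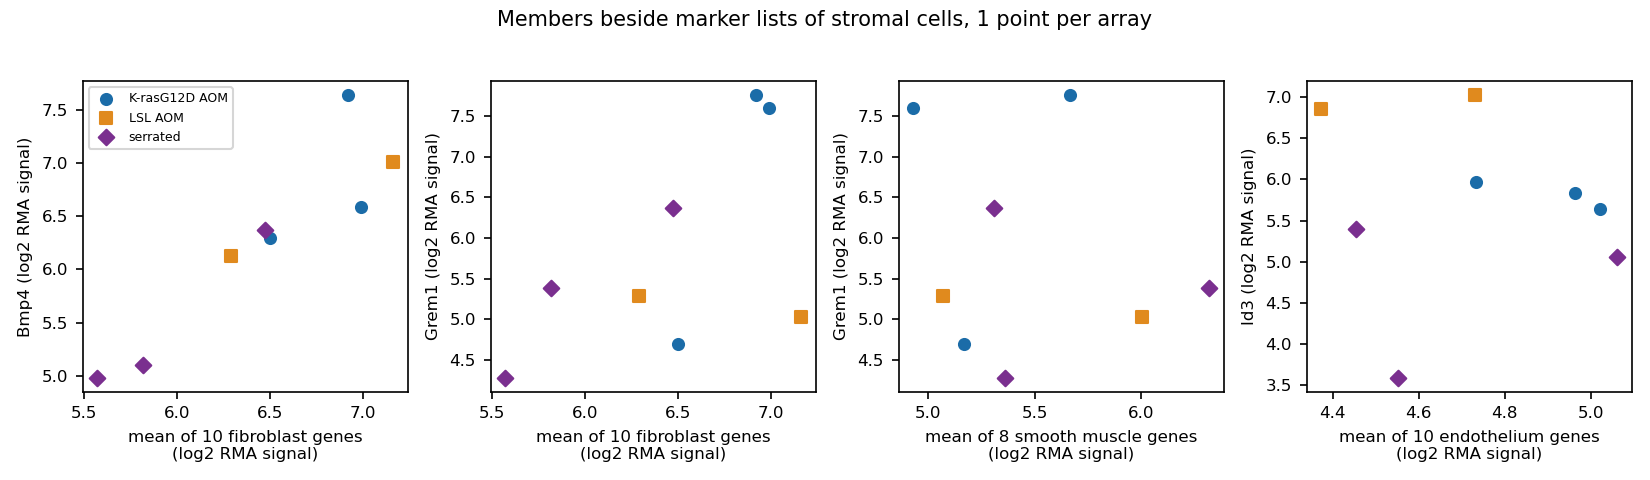
Log2 RMA signal of Bmp4, Grem1 and Id3 (y axes) against the mean log2 RMA signal of 10 fibroblast, 8 smooth muscle or 10 endothelial genes (x axes), 1 point per array, 8 arrays. The serrated arrays with the lowest fibroblast means, 5.57 and 5.82, also have the lowest Bmp4, at 4.98 and 5.10.

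Of the inhibitory Smads, which block receptor signalling and are themselves induced by it, Smad6 passed narrowly and Smad7 did not pass. Smad6 stood at 5.56, 5.28 and 5.34 in K-rasG12D AOM tumors, 5.78 and 5.73 in LSL AOM tumors, and 4.65, 5.26 and 4.82 in serrated tumors. Only 0.03 log2 units separated the highest serrated from the lowest AOM array. Smad6 fell by 0.66 ± 0.17 (SE; limma adjusted p = 0.0470), but the call held in only 1 of 8 leave-one-out fits, that without serrated replicate 2, and otherwise adjusted p was 0.0603 to 0.137. It was also lost after centring or quantile normalization of the arrays, with array weights and with a variance trend and robust fit (adjusted p of 0.0504 to 0.0853).

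Smad7 read 6.50, 6.50 and 6.97 in K-rasG12D AOM tumors, 7.45 and 7.39 in LSL AOM tumors, and 6.67, 6.80 and 6.40 in serrated tumors. Serrated and K-rasG12D AOM arrays overlapped, and both LSL arrays lay above them. Against the AOM groups the difference was -0.42 ± 0.17 (SE; limma adjusted p = 0.174), which did not pass, and without serrated replicate 1 it was -0.44 (adjusted p = 0.207). Against the K-rasG12D AOM group it was -0.04 ± 0.19 (95% interval -0.47 to 0.40; limma adjusted p = 0.923), with a sign that turned positive under both rescalings of the arrays.

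The Id genes, classical BMP targets, were lower in serrated tumors one and all. Id1 stood at 7.64, 7.99 and 7.61 in K-rasG12D AOM tumors, 7.95 and 8.15 in LSL AOM tumors, and 6.97, 7.30 and 7.10 in serrated tumors. Id2 read 8.20, 7.29 and 7.51, then 8.15 and 8.40, then 5.88, 7.08 and 6.75 in the same order of groups. Id3 read 5.97, 5.64 and 5.83, then 7.02 and 6.85, then 3.59, 5.40 and 5.05. Groups did not overlap between serrated and AOM tumors for any of the 3 genes, with gaps of 0.31, 0.21 and 0.24 log2 units for Id1, Id2 and Id3. Serrated replicate 1 was the lowest array for each of them.

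Id1 fell by 0.78 ± 0.16 on the log2 scale (SE; limma adjusted p = 0.0207). Id2 differed by -1.40 ± 0.30 (adjusted p = 0.0243) and Id3 by -1.69 ± 0.36 (adjusted p = 0.0236). Without serrated replicate 1 these falls were smaller, with differences of -0.70, -1.05 and -1.15, and all 3 genes passed (adjusted p = 0.0345, 0.0359 and 0.00438). All 3 calls were lost without either LSL AOM array (adjusted p of 0.0561 to 0.0845). Id1 was also not called without serrated replicate 2 (0.0523), nor Id3 without K-rasG12D AOM replicate 1 or 2 (0.0502 to 0.0558). Id genes are also expressed in endothelium and other stromal cells. Beside them, the fibroblast list had a median log2 difference of -1.08, the macrophage list -1.11 with no overlap between serrated and AOM arrays, and the endothelial list -0.15 with overlap. The part of cell content in the Id levels was not tested.

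**Figure D3:**
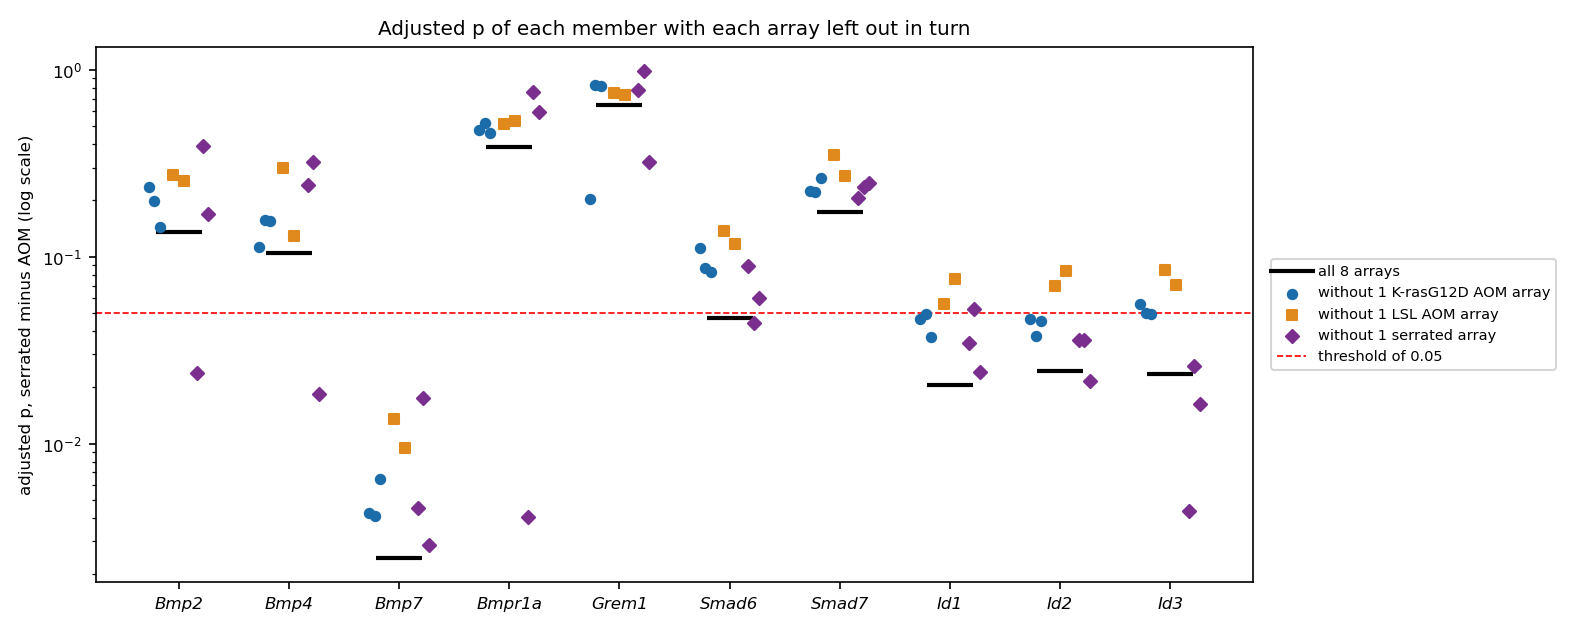
Benjamini-Hochberg adjusted p of serrated minus AOM tumors (y axis, log scale) for each gene (x axis) with all 8 arrays (black bars) and with 1 array left out (points, coloured by the group of that array). The dashed line is the threshold of 0.05: Bmp7 stays below it throughout, the Id genes rise above it without an LSL AOM array, and Bmpr1a drops to 0.00406 without serrated replicate 1.

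The comparison with each AOM group alone asked whether these falls are measured against both. These contrasts use the same serrated arrays and are not independent of each other or of the first. Against K-rasG12D AOM tumors, which carry the same K-ras label, 1 of the 10 genes passed, Bmp7, which fell by 2.01 ± 0.26 (SE; limma adjusted p = 0.00426), where 6.45% of all genes passed and 3.99% were lower. The count was 2 without serrated replicate 1, with Bmpr1a higher (0.85, adjusted p = 0.0136), and 2 without serrated replicate 3, with Bmp4 lower (-1.80, adjusted p = 0.0209). All serrated arrays lay below all K-rasG12D AOM arrays for Bmp7, Smad6 and the Id genes, 5 of the 10, as for 13.9% of all genes. Id1, Id2 and Id3 differed by -0.62 ± 0.18, -1.10 ± 0.34 and -1.13 ± 0.40 (SE) and did not pass (limma adjusted p = 0.0753, 0.0917 and 0.142). With array weights Id1 and Id2 passed (-0.46 and -0.85, limma adjusted p = 0.0367 and 0.0388), as did Bmp4 and Bmpr1a, while Id3 did not (0.0793). Those weights called 3302 of all genes lower and 2375 higher. Against LSL AOM tumors 4 of the 10 passed, where 5.71% of all genes did and 3.40% were lower: the differences of Bmp7, Id1, Id2 and Id3 were -1.76 ± 0.29, -0.93 ± 0.20, -1.70 ± 0.38 and -2.26 ± 0.45 (SE; limma adjusted p = 0.0130, 0.0316, 0.0346 and 0.0248). All serrated arrays lay below both LSL arrays for these 4, Smad6 and Smad7, 6 of the 10, as for 17.4% of all genes. They lay above them for Bmp2, as for 15.6% of all genes, with a difference of 1.18 ± 0.32 (SE; limma adjusted p = 0.0682). Id3 was thus 4.78-fold lower than in LSL AOM tumors and 2.19-fold lower than in K-rasG12D AOM tumors, where the difference did not pass. Without serrated replicate 1 the log2 differences of Id3 were smaller, at -1.71 and -0.59 (limma adjusted p = 0.00219 and 0.0917). Without LSL AOM replicate 1 or 2 the count against LSL AOM tumors was 0, and it was 2 without K-rasG12D AOM replicate 3 or serrated replicate 2. With the arrays of both groups alone it was 1. For these fits too, the share of all genes that passed was not counted.

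**Figure D4:**
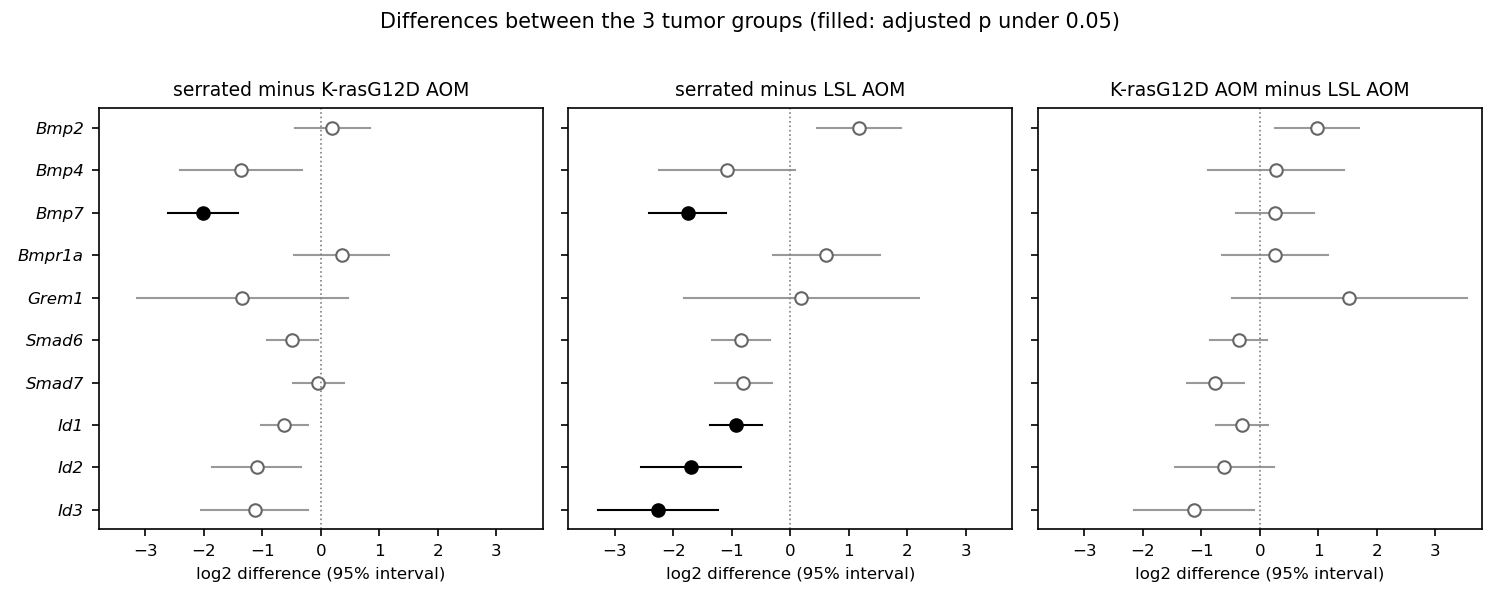
Log2 differences (x axis) of the 10 genes (y axis) between the 3 tumor groups, with limma's 95% interval; filled points have an adjusted p under 0.05. Bmp7 is filled in both comparisons with serrated tumors, the Id genes against LSL AOM tumors, and 0 genes between the AOM groups.

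Between the AOM groups, the test compared the K-ras labels within one tumor type and colon segment. Of the 10 genes 0 passed in limma, as did 0 of all 19938 (0%), while 3 members and 8.36% of all genes had an unadjusted p under 0.05. With array weights 58 genes passed, none of them a member. K-rasG12D AOM tumors had Bmp2 at 6.99 ± 0.37 (SD, n = 3) against 6.01 ± 0.03 (SD, n = 2), a log2 difference of 0.98 ± 0.32 (SE; limma adjusted p = 0.414). Smad7 stood at 6.66 ± 0.27 (SD, n = 3) against 7.42 ± 0.04 (SD, n = 2), with a difference of -0.76 ± 0.21 (SE; limma adjusted p = 0.352). Id3 stood at 5.81 ± 0.16 (SD, n = 3) against 6.94 ± 0.12 (SD, n = 2), with a difference of -1.13 ± 0.45 (SE; limma adjusted p = 0.546). The arrays of these groups did not overlap for 5 members, these 3 with Bmpr1a and Smad6, as was so for 32.1% of all genes. This contrast is also the test of whether a difference from serrated tumors varies with the AOM group chosen, and no member passed it.

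By group mean, Id1, Id2, Id3, Smad6 and Smad7 ran from LSL AOM through K-rasG12D AOM to serrated. Bmp4, Bmp7 and Grem1 were highest in K-rasG12D AOM tumors, while Bmp2 and Bmpr1a were highest in serrated tumors. Neighbours in these orders did not differ past the threshold, except Bmp7 between LSL AOM and serrated tumors. In Id1, Id2 and Id3 the call lay between the ends of the order.

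Other pathway genes were taken from 7 lists with 81 entries, of which 77 were measured. In serrated against AOM tumors 3 of these rose, 11 fell and 63 did not pass, where 3.62% of all genes rose and 5.76% fell. In lists of 10 to 17 genes, 1 or 2 calls are close to that share, and the counts below are descriptions. With an array left out, the share of all genes that passed was not counted. Leaving out serrated replicate 3 gave 22 calls in place of 14, leaving out serrated replicate 1 gave 16, leaving out serrated replicate 2 or LSL AOM replicate 1 gave 6, and leaving out K-rasG12D AOM replicate 2 or LSL AOM replicate 2 gave 9. Of 11 further BMP ligands, Bmp8a and Bmp8b rose, by 0.75 ± 0.15 and 1.18 ± 0.25 (SE; limma adjusted p = 0.0178 and 0.0221), and 9 did not pass (median 0.13). Bmp8a read 4.64 to 4.68 on the serrated arrays and 3.71 to 4.24 on the AOM arrays, below the median over genes of each AOM array. Bmp8b read 5.42 to 6.48 and 4.56 to 5.10, and in both genes serrated and AOM arrays did not overlap. These genes are related copies, and whether each probe set reads only its own gene was not tested. Bmp8a was not called without serrated replicate 2 or LSL AOM replicate 1, nor Bmp8b without K-rasG12D AOM replicate 1 or 2 or either LSL AOM array (adjusted p of 0.0528 to 0.0822).

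Of 11 further receptors and co-receptors 0 passed in limma (median 0.03). Smallest in adjusted p was Eng, an endothelial co-receptor, at -0.98 ± 0.32 (SE; limma adjusted p = 0.0899). Of 10 Smads and regulators, 1 fell and 9 did not pass (median -0.14). Smad5, a Smad that carries the BMP signal, read 5.30, 5.40 and 5.90 in serrated tumors and 6.54 to 6.96 in AOM tumors, with no overlap. It fell by 1.21 ± 0.18 (SE; limma adjusted p = 0.00567) and passed without any single array. Smad1, another Smad that carries the BMP signal, was named after its value was seen. It differed by -0.27 ± 0.14 (SE, limma adjusted p = 0.283).

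Among 17 measured antagonists and extracellular modulators, 3 fell, 0 rose and 14 did not pass (median -0.12). Bambi, a decoy receptor induced by BMP and Wnt signals, read 4.76, 4.13 and 4.71 in serrated tumors against 5.86 to 7.20 in AOM tumors. It fell by 1.89 ± 0.23 (SE; limma adjusted p = 0.00214), also without any single array. Fstl1, a secreted glycoprotein of mesenchyme, fell by 1.87 ± 0.38 (limma adjusted p = 0.0194), and Bmp1, a protease that frees BMPs from chordin, by 0.86 ± 0.19 (limma adjusted p = 0.0282). Fstl1 was not called without serrated replicate 2 or LSL AOM replicate 1, and Bmp1 was called only in the full set and without K-rasG12D AOM replicate 1 or serrated replicate 3 (otherwise 0.0553 to 0.128). On serrated replicate 3 Fstl1 read 6.49, against 5.06 and 4.93 on replicates 1 and 2, the same order as the fibroblast list, whose part in this was not tested.

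Of 10 measured BMP target genes besides the members, 2 fell, 0 rose and 8 did not pass (median 0.05). Tbx3, a T-box transcription factor, read 4.86, 5.65 and 5.76 in serrated tumors and 6.15 to 7.98 in AOM tumors. It fell by 1.71 ± 0.28 (SE; limma adjusted p = 0.00826) and passed without any single array. Atoh8, a basic helix-loop-helix factor, fell by 0.71 ± 0.19 (limma adjusted p = 0.04996, just inside the threshold), and passed in only 1 of the 8 leave-one-out fits, that without serrated replicate 1. Its serrated and AOM arrays overlapped, at 4.11 to 4.77 and 4.72 to 5.36.

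The E proteins, the partners that Id proteins hold back, fell with them. All 3 measured genes passed, lower in serrated tumors (median -1.55). Tcf4 read 5.92, 6.55 and 6.73 in serrated tumors against 8.15 to 8.74 in AOM tumors and fell by 2.02 ± 0.20 (SE; limma adjusted p = 0.000889). Tcf3 read 5.29, 5.60 and 5.33 against 6.35 to 7.36 and fell by 1.55 ± 0.17 (limma adjusted p = 0.00127). Both passed without any single array. Tcf12 read 5.57, 6.40 and 6.75 against 7.17 to 7.84 and fell by 1.19 ± 0.27 (limma adjusted p = 0.0297), a call lost without K-rasG12D AOM replicate 1 or 2, serrated replicate 2 or either LSL AOM array (adjusted p of 0.0660 to 0.0936). Tcf3 and Tcf4 here are the E protein genes, not the Wnt effectors that once shared those names. As with the Id genes, the part of cell content in the E protein levels was not tested.

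**Figure D5:**
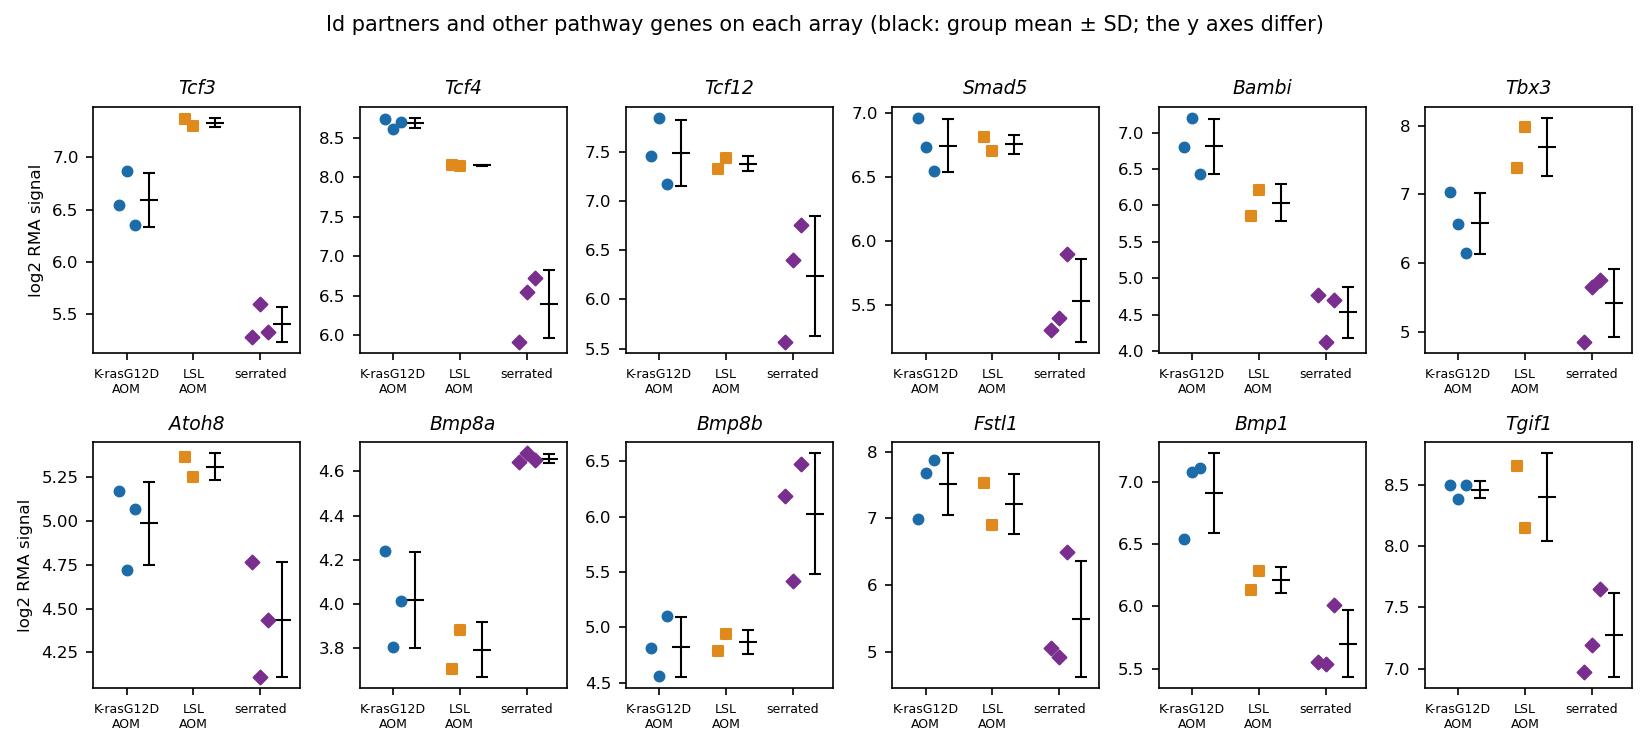
Log2 RMA signal (y axis, scaled per panel) of E protein genes and other pathway genes on each array, by tumor group (x axis), with the group mean ± SD in black (n = 3, 2 and 3). Tcf3, Tcf4, Smad5, Bambi and Tbx3 lie lower on every serrated array than on any AOM array, and Bmp8a and Bmp8b lie higher.

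Of 15 measured TGF-beta and activin pathway genes, a sister branch with its own Smads, 2 fell, 1 rose and 12 did not pass (median -0.43). Tgif1, a corepressor of Smad2 and Smad3, fell by 1.16 ± 0.20 (SE; limma adjusted p = 0.00906), and the receptor Tgfbr1 by 0.72 ± 0.19 (limma adjusted p = 0.0449), a call that held only without serrated replicate 3 among the leave-one-out fits. Acvr1c, a type I receptor, rose by 0.93 ± 0.17 (limma adjusted p = 0.0130) from an AOM mean of 2.58, below the median of every array. Tgif1 was not called without serrated replicate 2 (0.0504), nor Acvr1c without that array or LSL AOM replicate 1 (0.0531 to 0.0673). Between the AOM groups 0 of the 77 passed in limma. The smallest adjusted p there belonged to Tcf3, at -0.74 ± 0.21 (SE; 0.347), followed by Tbx3, at -1.11 ± 0.35 (0.409). In the other lists it belonged to Nbl1, a BMP antagonist (0.90 ± 0.29; 0.414), Tgfb2 (0.76 ± 0.28; 0.483), Bmp5 (1.23 ± 0.54; 0.595), Bmpr2 (0.49 ± 0.23; 0.637) and Skil (-0.35 ± 0.17; 0.661).

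Genes with array profiles most like those of the 5 lower members were found by the root mean square difference between profiles centred on their mean over the 8 arrays, among 9726 named genes brighter than the median gene. Nearest to Bmp7 were Pdgfrl, Aldh1l1 and Gpx2, at 0.23 to 0.25 log2 units. Nearest to Id1 were Creld1, Raly and Elmo2, at 0.09. Id2 was nearest to Grcc10, Zbtb8a and Atp11a, at 0.30 to 0.31, and Id3 to Hid1, Slc44a2 and Cyp27a1, at 0.27 to 0.35. Smad6 was nearest to Cbx1, Nrip1 and Chchd5, at 0.10 to 0.11. Among the 10 members the closest pair was Id1 and Smad6, at 0.20, followed by Smad6 and Smad7, at 0.30, and Id2 and Id3, at 0.35. Flat profiles lie close together by this measure, so these distances describe likeness only.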

How the data were processed

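The deposited values are log2 signals per probe set, made by the authors with GCOS and RMA per the submitters' processing notes; no source used here gives versions or settings. No scaling or background correction was added. Of 35557 probe sets, 21789 carried exactly 1 gene symbol in the platform annotation; 1621 with several symbols and 12147 without a listed gene were left out. The brightest probe set by mean over the 8 arrays stood for a gene, which left 19938 genes. Group means were fitted to all 8 arrays with limma 3.58.1 in R 4.3.3 (5 residual degrees of freedom, trend and robust off), with p-values adjusted by Benjamini-Hochberg over all genes and a threshold of 0.05. All p-values on genes are limma's. The fit shares 1 spread per gene over the groups, so a gene that varies more among serrated arrays is judged against the pooled spread. The fit was tested on simulated data. Arrays carry no read depth, and their small number limits the precision.

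Members, lists, tests and the rule for named genes were chosen with earlier results of these data known. The rule named all members, all E proteins, up to 6 genes past the threshold per list, or else the 1 of smallest adjusted p, and the 3 nearest profiles of each called member. Replicates are numbered in accession order. Alternatives were a filter on the dimmest 40% of genes, trend and robust fits, array weights (gene-by-gene method, since the default did not converge), median centring, quantile normalization, averaged probe sets, fits to the groups compared alone, and each array left out. Motifs were searched in RefSeq promoters of GRCm38.p6.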

Additional observations from a re-analysis of the deposited data

How the results depend on the processing

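Of the 10 genes, 5 passed for serrated against AOM tumors, with 1 to 6 when 1 array was left out and 7 with array weights; leaving out an LSL AOM array leaves 1 in that group, assumed to vary like the others. Against K-rasG12D AOM tumors 1 passed (1 to 2 with an array left out, 5 with array weights), and against LSL AOM tumors 4 (0 to 6 with an array left out, 7 with array weights, 1 with the groups compared alone). Of the 77 other pathway entries 14, 11 and 8 passed in these comparisons, and 6 to 22, 3 to 20 and 1 to 16 with an array left out. How many of all genes passed was not counted for the fits with an array left out or with the groups compared alone. With array weights more of all genes passed as well. Against K-rasG12D AOM tumors 3302 were lower and 2375 higher, where 796 and 490 were without weights. Against LSL AOM tumors 2045 were lower and 1625 higher, where 678 and 460 were without weights. Signs turned only for values that did not pass. Bmp2 against K-rasG12D AOM tumors ran from -0.016 to 0.49 with an array left out, and Smad7 from -0.13 to 0.12, with 0.14 under array weights, 0.052 after centring and 0.13 after quantile normalization. Grem1 against LSL AOM tumors ran from -0.32 to 0.72 (-0.59 with array weights), and between the AOM groups Bmp4 ran from -0.16 to 0.71 and Bmp7 from -0.012 to 0.49. The causes were not tested. Over all values of single members, 521 kept direction and side of the threshold, 37 lost a call, 20 gained one and 12 changed sign. The 521 include members that were not called in a comparison and stayed so, while only the 5, 1 and 4 calls above could be lost. Array weights gave serrated replicate 2 a weight of 3.15 against 0.24 and 0.38 for replicates 1 and 3. No paired analysis was possible because the labels give no shared replicate numbers.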
